A study of Homo sapiens with 16 samples.

Results

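The genes described here encode the machinery of mitosis: 58 genes for mitotic kinases, cyclins and regulators of cyclin-dependent kinases, spindle checkpoint and anaphase-promoting complex factors, kinetochore proteins, kinesins, cytokinesis and spindle assembly factors, and proteins of mitotic chromosome structure. They were listed by name, and a listed gene was kept where the deposited table held a row under its symbol with a mean of at least 1 FPKM over 16 libraries. FPKM counts sequenced fragments relative to the length of the transcript and the size of the library. Of the 58 genes 57 had such a row and all 57 passed, out of 11647 loci that passed among 24293 in the table. The members nearest to that limit were KIF15, ESPL1 and SPC24, with means of 2.51, 3.50 and 3.77 FPKM, and no listed gene with a row fell under it. BUB1B, which encodes the checkpoint kinase BUBR1, shared its row with PAK6 (chr15:40453209-40569688, hg19, a mean of 25.8 FPKM) and was not counted, since the reads of the 2 genes cannot be told apart there. KIFC1 had 3 rows, of which the row with the highest mean was used.

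All libraries came from HCC4006, an established human non-small cell lung cancer line with an activating mutation of EGFR, so the groups rest on 1 line. Cells were grown for 24 hours and then treated for 24 hours with the solvent DMSO (vehicle), with gefitinib at 100 nM, with AZ1366 at 100 nM, or with both at 100 nM each (the combination). Gefitinib inhibits the kinase of the EGF receptor, and AZ1366 inhibits tankyrase, an enzyme that adds poly(ADP-ribose) to proteins such as axin in the Wnt pathway. Each group had 4 libraries of polyA RNA, and the labels do not say whether each had a culture of its own, so the spread behind every p-value here may be technical.

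Entry into mitosis is driven by cyclin B bound to CDK1, and Polo and Aurora kinases then build the spindle and attach chromosomes to it. Kinetochores bind spindle microtubules, kinesins move chromosomes and slide microtubules, and the spindle checkpoint holds the anaphase-promoting complex (APC/C) inactive until attachment is complete. Genes of this machinery are transcribed mainly in G2 and mitosis, through the MuvB complex with B-MYB and FOXM1 acting at a promoter element called the cell cycle homology region (CHR), often beside CCAAT boxes bound by NF-Y, so their transcripts are widely used as markers of dividing cells.

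Summed over loci, libraries held 433357 to 478179 FPKM. The number of reads is not given, so the depth behind each value is unknown. The 6 epithelial markers fixed for the check of the cell type (EPCAM, CDH1, KRT7, KRT8, KRT18 and KRT19) were all above 1 FPKM on average, with a summed level of 5198 to 5922 FPKM in the vehicle libraries, 4367 to 4745 with gefitinib, 3668 to 4920 with AZ1366 and 3573 to 3964 with the combination. The summed markers of other cell types stayed at or under 3.91 FPKM for fibroblasts (4 genes, with COL1A1 the 1 gene above 1 FPKM on average over the 16), 1.002 for leukocytes (4 genes) and 0.788 for endothelium (3 genes), and CD3E was at 0 in all vehicle and gefitinib libraries and DCN in all vehicle libraries. The fibroblast sum was 2.23 to 2.65 FPKM in vehicle libraries, 3.70 to 3.91 in gefitinib, 1.93 to 2.51 in AZ1366 and 3.19 to 3.60 in combination libraries. These shifts move with the treatments, and their part in the results was not tested. On the first principal component of all tested loci AZ1366 library 1 stood apart from its group, at -19.6 against -6.50 to -3.10 for the other 3 AZ1366 libraries and -39.3 to -34.0 for vehicle. The AZ1366 counts, and the members that move most with that library, are given with and without it.

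RefSeq promoter windows (GRCh38.p14, 250 bases before to 50 after the start of the gene) were at hand for 49 of the 57 members. AURKA, BIRC5, BUB3, FOXM1, RACGAP1, TPX2, TTK and UBE2C had none. The letters TTTGAA or TTCGAA, taken as the CHR and searched on both strands, occurred in 37 of the 49 windows (75.5%), against 886 of 8109 windows of tested loci (10.9%) and 4539 of 27305 windows in the whole table (16.6%). CCAAT, also on both strands, was in 37 of 49 (75.5%), against 37.0% of the windows of tested loci and 35.7% of the table. Both were present in 29 members (59.2%), against 4.70% and 6.58%. Other spellings of the CHR were not searched, so a window without these letters may still hold the element. A match of letters is a description and not a binding site.

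The 200 bases before the start of 8 members are printed below, 5′ to 3′ on the strand of the gene, with CHR and CCAAT letters of either strand in capitals (TTCAAA and ATTGG are the reverse strand forms of TTTGAA and CCAAT). They show the kinase PLK1, the APC/C activator CDC20 and the cyclin CCNB2, 3 regulators of mitotic entry and exit, then TOP2A, MKI67 and ASPM, which are among the members that fell far, CKS2, the member that changed least with the combination, and CENPE, the member that fell most. In MKI67 a CHR and a reverse CCAAT share 1 base in TTTGAATTGG. The window of CENPE held neither set of letters.
PLK1 (chr16:23678689-23678888, plus strand): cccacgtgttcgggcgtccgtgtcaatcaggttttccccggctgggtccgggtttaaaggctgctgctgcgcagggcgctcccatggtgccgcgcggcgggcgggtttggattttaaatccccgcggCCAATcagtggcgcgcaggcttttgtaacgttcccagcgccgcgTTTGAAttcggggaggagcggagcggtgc
CDC20 (chr1:43358781-43358980, plus strand): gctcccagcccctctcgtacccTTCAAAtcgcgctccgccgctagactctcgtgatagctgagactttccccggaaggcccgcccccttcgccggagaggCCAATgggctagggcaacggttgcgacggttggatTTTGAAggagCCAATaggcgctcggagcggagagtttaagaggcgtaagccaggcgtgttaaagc
CCNB2 (chr15:59104946-59105145, plus strand): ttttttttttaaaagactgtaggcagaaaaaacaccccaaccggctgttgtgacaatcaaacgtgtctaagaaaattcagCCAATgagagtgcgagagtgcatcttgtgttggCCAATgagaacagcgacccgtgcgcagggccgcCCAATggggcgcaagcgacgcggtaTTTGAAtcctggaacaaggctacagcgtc
TOP2A (chr17:40417897-40418096, minus strand): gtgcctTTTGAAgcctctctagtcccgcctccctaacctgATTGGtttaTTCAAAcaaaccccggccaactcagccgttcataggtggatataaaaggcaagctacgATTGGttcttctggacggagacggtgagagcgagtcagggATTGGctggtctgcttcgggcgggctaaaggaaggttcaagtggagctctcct
MKI67 (chr10:128126424-128126623, minus strand): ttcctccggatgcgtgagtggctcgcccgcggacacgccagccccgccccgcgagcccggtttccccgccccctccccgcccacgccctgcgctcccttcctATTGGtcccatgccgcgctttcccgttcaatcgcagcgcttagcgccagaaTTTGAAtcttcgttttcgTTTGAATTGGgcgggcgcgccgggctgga
ASPM (chr1:197146670-197146869, minus strand): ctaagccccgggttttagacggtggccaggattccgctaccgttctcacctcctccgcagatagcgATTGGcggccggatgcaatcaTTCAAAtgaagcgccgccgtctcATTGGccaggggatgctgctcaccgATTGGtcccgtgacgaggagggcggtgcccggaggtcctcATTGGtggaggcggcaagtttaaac
CKS2 (chr9:89310995-89311194, plus strand): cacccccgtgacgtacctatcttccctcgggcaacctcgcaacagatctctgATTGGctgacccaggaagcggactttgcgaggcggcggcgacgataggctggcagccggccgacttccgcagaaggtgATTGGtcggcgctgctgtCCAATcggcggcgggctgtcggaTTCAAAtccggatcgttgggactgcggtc
CENPE (chr4:103198344-103198543, minus strand): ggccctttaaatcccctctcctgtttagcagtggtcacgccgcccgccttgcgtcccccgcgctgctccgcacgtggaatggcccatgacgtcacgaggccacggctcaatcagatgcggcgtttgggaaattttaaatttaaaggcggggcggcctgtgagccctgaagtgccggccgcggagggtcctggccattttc

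Mitotic transcripts were lower with each compound and lowest with both. Their summed FPKM made up 0.780 ± 0.0113% of vehicle libraries, 0.514 ± 0.0374% of gefitinib, 0.621 ± 0.0291% of AZ1366 and 0.337 ± 0.00541% of combination libraries (mean ± SD, n = 4 libraries per group). The median member kept 62.8% of its vehicle level in FPKM with gefitinib, 75.9% with AZ1366 and 37.1% with the combination. In bulk RNA fewer dividing cells and less RNA per cell cannot be told apart, and this holds for every comparison that follows. The 3 comparisons with vehicle use the same vehicle libraries.

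**Figure D1:**
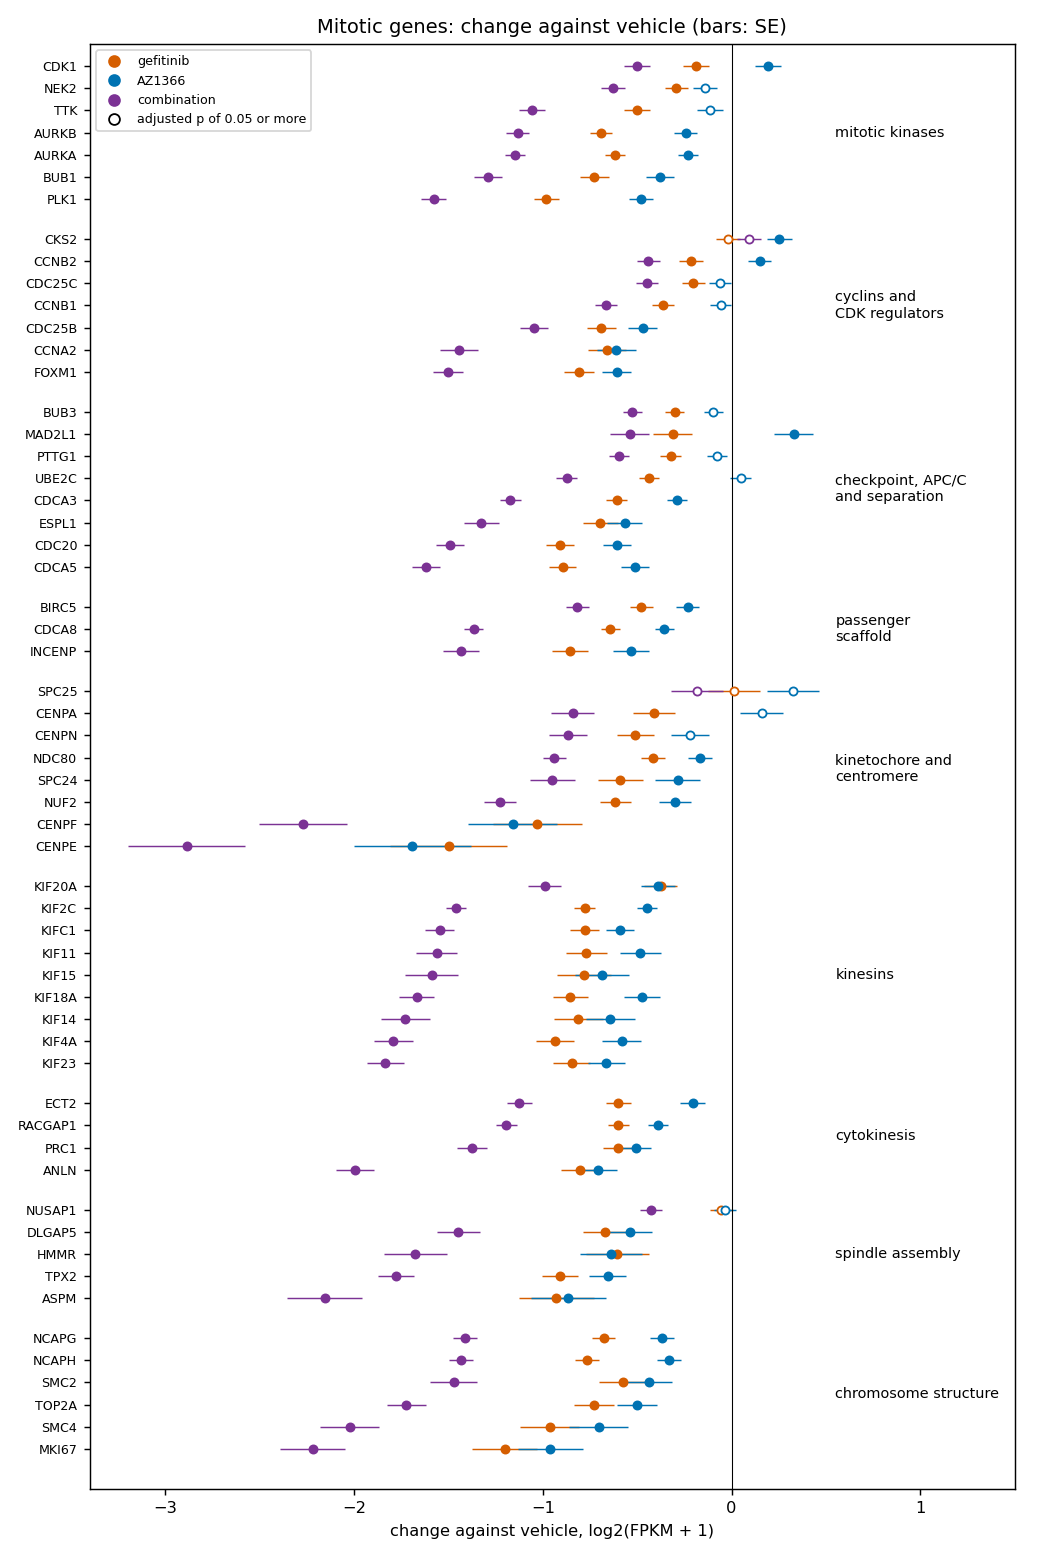
Change of each of the 57 members against vehicle on the log2(FPKM + 1) scale (x axis), by role, with bars for the standard error of the fit and open points for an adjusted p of 0.05 or more. Combination points lie leftmost for all members except CKS2, and CENPE, at -2.89 with the combination, lies farthest from 0.

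Against vehicle, gefitinib lowered 54 of 57 members and raised 0 (limma on log2(FPKM + 1), Benjamini-Hochberg adjusted p under 0.05 over 11647 loci), where 36.9% of all tested loci were called lower and 27.7% higher. CKS2, SPC25 and NUSAP1 were not called. The median change of the members was -0.66 on the log2 scale, and that of all tested loci -0.06. A fall of at least 1 on that scale was called for 3 members, CENPE, MKI67 and CENPF, with 1.06% of all loci past that fold. The values of 50 members did not overlap between the groups, all 50 lower with gefitinib (35.7% of all loci).

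AZ1366 alone lowered 42 members and raised 4, against a background of 39.8% of tested loci lower and 18.6% higher. The members that rose were MAD2L1, CKS2, CDK1 and CCNB2, and 11 were not called. The median change of the members was -0.39 and that of all loci -0.10, so the members stood -0.29 from the shift of all loci. CENPE and CENPF were the 2 members that fell by at least 1 on the log2 scale (0.266% of all loci). The groups did not overlap for 42 members that were lower (26.0% of all loci) and for 1 that was higher, CKS2 (14.6%). With libraries corrected for transcript length and GC content, TTK, NEK2, CCNB1, CDC25C, UBE2C, PTTG1, CENPN, NUSAP1, CDK1 and CKS2 were called lower too. Of all tested loci 4705 of 11536 were lower with that correction, and the other counts here are without it. Without AZ1366 library 1, 45 members were lower and 5 higher, with a median of -0.48, while the background rose to 49.1% of tested loci lower and 18.7% higher and the median of all loci went to -0.15.

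The AZ1366 change was more negative without that library for 48 of the 57 members. It went from -1.16 to -1.41 for CENPF, from -1.69 to -1.95 for CENPE, from -0.96 to -1.18 for MKI67, from -0.86 to -1.04 for ASPM and from -0.70 to -0.87 for SMC4, the 5 members that moved most in that direction. NEK2 (-0.15, limma adjusted p = 0.0491), BUB3 (-0.12, adjusted p = 0.0412) and CENPN (-0.29, adjusted p = 0.0129) were then called lower, and SPC25 was called higher (0.49, adjusted p = 0.000539, from 0.33 and 0.0505). All 57 members were still lower with the combination than with AZ1366, with a median of -0.88. Of all 11647 tested loci 3695 were then lower and 3527 higher in that comparison, with a median of -0.01.

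With the combination 55 of 57 members were lower than with vehicle and 0 higher, against 49.4% and 29.9% of tested loci. Their median change was -1.37, and -1.22 from the median of all loci (-0.15). A fall of at least 1 was called for 39 members (68.4%), against 7.39% of all loci. The 55 called members were also the 55 whose groups did not overlap (48.1% of all loci were lower without overlap). The members not called were CKS2 and SPC25.

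Mitotic transcripts were also lower with the combination than with either compound alone. The combination was below gefitinib alone for 54 members and above it for 0 (37.2% and 15.3% of loci), with a median of -0.61 against -0.10 over all loci, and a fall of at least 1 for 7 members (0.335% of loci). The combination was below AZ1366 alone for all 57 members and above it for 0 (35.7% and 26.9% of loci), with a median of -0.91 against -0.05 over all loci, and a fall of at least 1 for 22 members (1.65% of loci). The groups did not overlap for 55 members in each of these comparisons, all lower with the combination (34.4% and 30.8% of loci). In all, 42 members were called lower in every one of the 5 pairwise comparisons, against 18.6% of tested loci.

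Scaling the libraries so that the median locus did not change moved the median of all loci from -0.10 to 0.00 for AZ1366 and from -0.15 to 0.00 for the combination. The split of all called loci then went from 2168 higher and 4633 lower to 3540 and 3534 for AZ1366. For gefitinib against vehicle it went from 3226 higher and 4295 lower to 3855 and 3949. For the combination against vehicle it went from 3488 higher and 5753 lower to 4708 and 4691, and for the combination against gefitinib from 1780 and 4338 to 3099 and 3250. Under that scaling 51 members were lower with gefitinib and 0 higher, 36 lower and 6 higher with AZ1366, 55 lower and 1 higher with the combination, and 49 lower and 0 higher with the combination against gefitinib. The 6 members whose fall with AZ1366 lost its call were AURKA, AURKB, BIRC5, NDC80, SPC24 and ECT2, and CENPA and SPC25 were called higher.

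The mitotic kinases, 7 members, had median changes on the log2 scale of -0.62 with gefitinib, -0.23 with AZ1366 and -1.13 with the combination, and all 7 fell with gefitinib and with the combination. PLK1, the Polo kinase of spindle assembly (chr16:23690200-23724821, hg19), stood at 124, 109, 109 and 107 FPKM in vehicle libraries, 57.1, 56.2, 51.9 and 59.8 in gefitinib, 87.1, 75.8, 79.2 and 78.1 in AZ1366 and 36.1, 39.9, 33.6 and 37.8 in combination libraries. The 4 groups did not overlap, with AZ1366 between vehicle and gefitinib. PLK1 changed by -0.98 ± 0.06 with gefitinib, -0.48 ± 0.06 with AZ1366 and -1.58 ± 0.06 with the combination on the log2(FPKM + 1) scale (± standard error, limma adjusted p = 7.03e-10, 2.08e-05 and 5.03e-13).

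AURKB, the Aurora kinase that corrects faulty attachments (chr17:8108048-8113944), had 42.7, 39.8, 39.7 and 40.2 FPKM in vehicle libraries, 23.5, 24.6, 24.2 and 26.8 in gefitinib, 30.7, 32.3, 37.6 and 36.4 in AZ1366 and 18.01, 18.1, 17.7 and 18.03 in combination libraries. Its groups were again separate in the same order. The changes were -0.69 ± 0.06, -0.24 ± 0.06 and -1.13 ± 0.06 (limma adjusted p = 2.87e-08, 0.0027 and 1.58e-11), and the AZ1366 change lost its call under median-ratio scaling (-0.12, adjusted p = 0.192) and quantile normalization (-0.17, adjusted p = 0.0545).

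CDK1, the kinase of mitotic entry (chr10:62538088-62554610), moved least among the kinases with gefitinib and with the combination, at 124, 139, 162 and 139.6 FPKM in vehicle libraries, 119, 126, 130.4 and 119 in gefitinib, 147, 168, 165 and 166 in AZ1366 and 100.1, 93.4, 103 and 101 in combination libraries. Vehicle library 3 lay near the AZ1366 libraries and vehicle library 1 near the gefitinib libraries, so both single compounds overlapped vehicle, while the combination lay below every other library. CDK1 changed by -0.19 ± 0.07 with gefitinib (limma adjusted p = 0.0239), 0.19 ± 0.07 with AZ1366 (adjusted p = 0.0239) and -0.50 ± 0.07 with the combination (adjusted p = 3.54e-06). The gefitinib call was lost without vehicle library 3 (-0.12, adjusted p = 0.106) or gefitinib library 1 or 4 (-0.17 each), and under median-ratio scaling (-0.13, adjusted p = 0.254). The AZ1366 call was lost without vehicle library 1 or AZ1366 library 2, 3 or 4, with quantile normalization (0.16, adjusted p = 0.0741) and with only the vehicle and AZ1366 libraries in the fit (adjusted p = 0.0688). The rise with AZ1366 turned to -0.10 (adjusted p = 0.0455) once libraries were corrected for transcript length and GC content. TTK, the checkpoint kinase MPS1 (chr6:80714321-80752244), had 51.998, 57.3, 61.7 and 56.4 FPKM in vehicle libraries, 43.2, 42.7, 39.04 and 34.7 in gefitinib, 55.6, 51.9, 48.6 and 53.5 in AZ1366 and 27.4, 26.8, 27.2 and 25.5 in combination libraries. The AZ1366 libraries of TTK lay within or near the vehicle range and those of the combination lay lowest, with changes of -0.50 ± 0.07, -0.12 ± 0.07 and -1.06 ± 0.07 (limma adjusted p = 5.79e-06, 0.154 and 1.78e-10).

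Of the other kinases, AURKA, which acts at spindle poles, went from 148 ± 5.36 FPKM with vehicle to 96.1 ± 5.69 with gefitinib, 126 ± 5.85 with AZ1366 and 66.2 ± 1.997 with the combination (mean ± SD, n = 4). BUB1, a checkpoint kinase at the kinetochore, went from 42.8 ± 1.44 to 25.6 ± 2.76, 32.9 ± 3.85 and 16.9 ± 0.473 FPKM in the same order. NEK2, a kinase of centrosome separation, went from 28.5 ± 1.48 to 23.2 ± 2.58, 25.7 ± 0.803 and 18.1 ± 0.226 FPKM, and its AZ1366 change of -0.14 ± 0.06 was not called (limma adjusted p = 0.0602) but was -0.33 (adjusted p = 0.000659) with the length and GC correction, and was called in 7 of the alternatives. AURKA and BUB1 fell in all 3 comparisons with vehicle, and the AZ1366 change of AURKA, -0.23, was -0.11 and not called under median-ratio scaling (adjusted p = 0.0524).

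Cyclins and regulators of cyclin-dependent kinases, 7 members, had the smallest median changes of the role groups, at -0.36 with gefitinib, -0.06 with AZ1366 and -0.67 with the combination. CCNB1, the cyclin partner of CDK1 (chr5:68462836-68474070), was at 103, 119.6, 111 and 107 FPKM in vehicle libraries, 86.9, 82.9, 86.3 and 85.3 in gefitinib, 95.8, 113, 108 and 107 in AZ1366 and 63.8, 71.5, 70.2 and 70.2 in combination libraries. Gefitinib and combination libraries lay below all vehicle libraries, as did AZ1366 library 1 at 95.8 FPKM. The other AZ1366 libraries lay among the vehicle libraries. The changes of CCNB1 were -0.36 ± 0.06 (limma adjusted p = 3.59e-05), -0.06 ± 0.06 (adjusted p = 0.396) and -0.67 ± 0.06 (adjusted p = 9.64e-09), and the AZ1366 value was 0.07 under median-ratio scaling and -0.22 (adjusted p = 0.000487) after the length and GC correction.

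CKS2, a small subunit that binds cyclin-dependent kinases (chr9:91926112-91931618), was among the 4 members called higher with AZ1366, and alone had a combination change above 0. It stood at 163, 183, 179 and 176 FPKM in vehicle libraries, 161, 164, 179.9 and 188 in gefitinib, 187, 217, 223 and 211 in AZ1366 and 179, 179.6, 198 and 191 in combination libraries. All 4 AZ1366 libraries were above all vehicle libraries, and the other groups overlapped vehicle. CKS2 rose by 0.25 ± 0.06 with AZ1366 (limma adjusted p = 0.00312), while gefitinib gave -0.02 ± 0.06 (adjusted p = 0.809) and the combination 0.09 ± 0.06 (adjusted p = 0.195). Its transcript, at 613 nucleotides, was the shortest of the members, and with the length and GC correction the same changes were -0.20, -0.29 and -0.48 (adjusted p = 0.00222, 3.86e-05 and 7.04e-08), so its direction depends on that correction. With median-ratio scaling the combination value was 0.27 (adjusted p = 0.0162).

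FOXM1, the transcription factor of late cell cycle genes (chr12:2945981-2998691), had 49.3, 42.8, 40.9 and 41.9 FPKM in vehicle libraries, 25.1, 25.02, 23.02 and 24.8 in gefitinib, 33.97, 25.02, 27.02 and 27.7 in AZ1366 and 14.8, 15.5, 13.6 and 15.1 in combination libraries. Every treated library lay below every vehicle library, and the combination libraries lay lowest. FOXM1 fell, with changes of -0.81 ± 0.08 with gefitinib, -0.61 ± 0.08 with AZ1366 and -1.50 ± 0.08 with the combination (limma adjusted p = 1.09e-07, 1.43e-05 and 1.21e-11). CCNA2, the cyclin of S and G2 phase, went from 73.04 ± 2.42 FPKM to 45.9 ± 3.14, 48.1 ± 9.24 and 26.4 ± 3.26. CDC25B, a phosphatase that activates CDK1, went from 51.7 ± 5.13 to 31.6 ± 1.74, 37.1 ± 3.94 and 24.5 ± 1.48 FPKM. CCNB2, another mitotic cyclin, went from 63.7 ± 5.11 to 54.7 ± 2.57, 70.7 ± 4.18 and 46.6 ± 2.34 FPKM, and CDC25C, a further phosphatase, from 7.75 ± 0.463 to 6.60 ± 0.365, 7.38 ± 0.431 and 5.41 ± 0.356 FPKM (mean ± SD, n = 4). The AZ1366 value of CDC25C was not called, and the rise of CCNB2 with AZ1366 lost its call under 14 of the alternatives, among them without vehicle library 1 or 4, gefitinib library 1 or 3, AZ1366 library 3 or 4, or combination library 2 or 3.

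**Figure D2:**
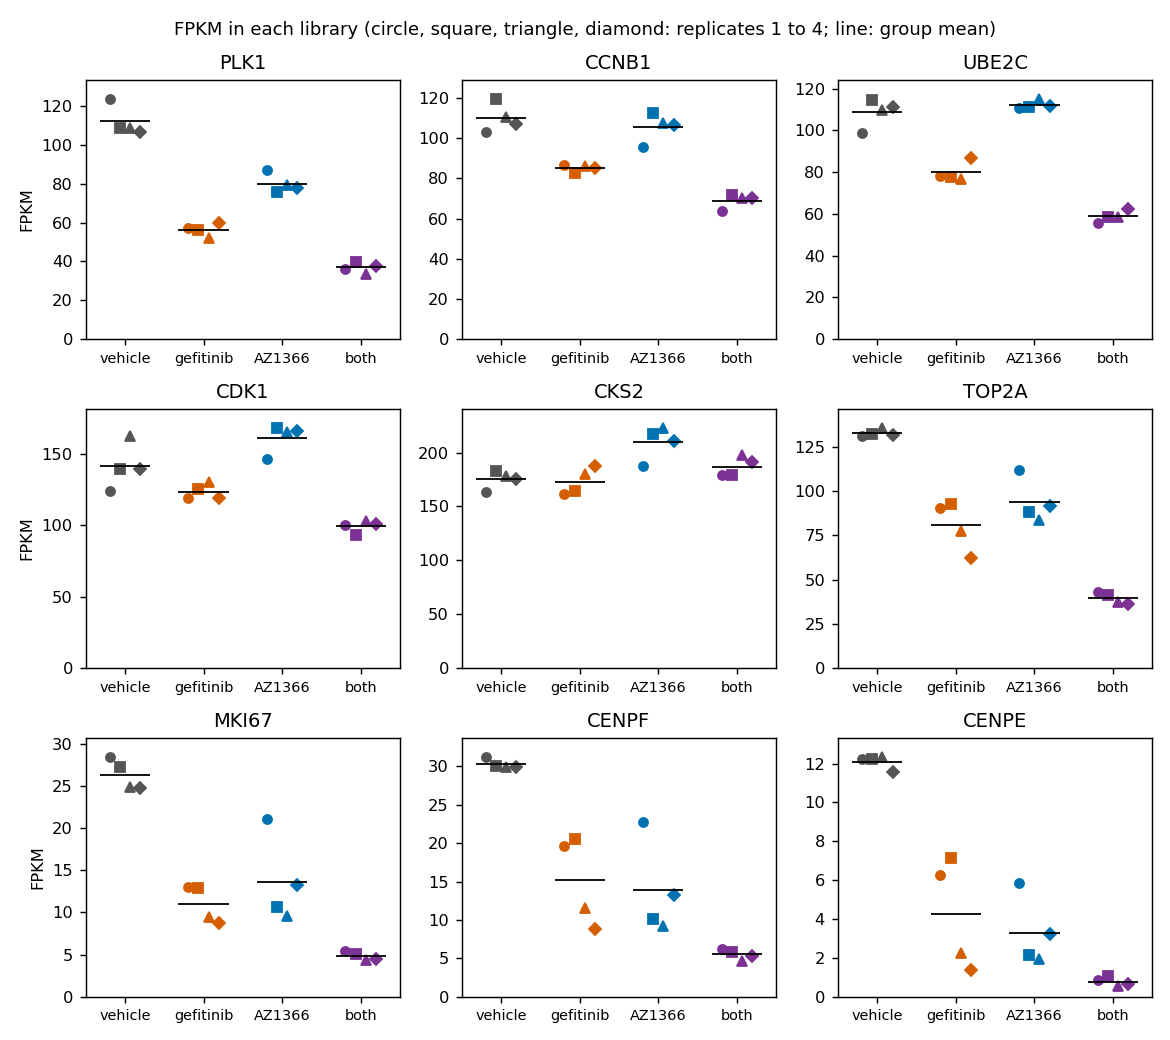
FPKM (y axis, from 0) of 9 members in each library by group (x axis), with lines for group means. The combination libraries lie lowest in all panels but CKS2, and in MKI67, CENPF and CENPE libraries 3 and 4 of gefitinib lie below libraries 1 and 2, and library 1 of AZ1366 above the other AZ1366 libraries.

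The checkpoint, APC/C and sister chromatid separation genes, 8 members, all fell with gefitinib and with the combination, with medians of -0.52 and -1.02. With AZ1366 their median was -0.19, with 4 lower (50% of the 8, near the 39.8% of all tested loci), 1 higher and 3 not called. UBE2C, the ubiquitin-conjugating enzyme of the APC/C (chr20:44441254-44445596), stood at 98.9, 114, 109.8 and 111 FPKM in vehicle libraries, 77.9, 77.8, 76.8 and 86.7 in gefitinib, 111, 111, 115 and 112 in AZ1366 and 55.8, 58.4, 58.3 and 62.5 in combination libraries. AZ1366 libraries overlapped vehicle, and gefitinib and combination libraries lay apart below. UBE2C changed by -0.44 ± 0.05 (limma adjusted p = 2.02e-06), 0.05 ± 0.05 (adjusted p = 0.453) and -0.87 ± 0.05 (adjusted p = 1.13e-10), with an AZ1366 value of -0.28 (adjusted p = 0.000414) after the length and GC correction.

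PTTG1, the securin that guards separase (chr5:159848864-159855746), had 123, 130.3, 126 and 125 FPKM in vehicle libraries, 98.004, 102, 102 and 101 in gefitinib, 116, 118, 121 and 122 in AZ1366 and 74.04, 83.02, 83.7 and 91.7 in combination libraries. The AZ1366 libraries were just below the vehicle libraries, and the other treated libraries well below. Its changes were -0.32 ± 0.05 (limma adjusted p = 4.88e-05), -0.08 ± 0.05 (adjusted p = 0.217) and -0.60 ± 0.05 (adjusted p = 1.36e-08), and the AZ1366 value was 0.05 under median-ratio scaling and -0.39 (adjusted p = 7.04e-05) with the length and GC correction.

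MAD2L1, the checkpoint protein that inhibits CDC20 (chr4:120980578-120988013), was at 76.7, 105, 115 and 87.6 FPKM in vehicle libraries, 67.9, 79.6, 78.8 and 79.7 in gefitinib, 106, 110.4, 133 and 131 in AZ1366 and 65.5, 63.5, 66.1 and 64.8 in combination libraries. Vehicle libraries spread widely and overlapped both single compounds, and the combination lay below all other libraries. MAD2L1 fell with gefitinib (-0.31 ± 0.10, limma adjusted p = 0.0138), rose with AZ1366 (0.33 ± 0.10, adjusted p = 0.0114) and fell with the combination (-0.54 ± 0.10, adjusted p = 0.000117). Without vehicle library 1 the AZ1366 value was 0.23 (adjusted p = 0.051), without vehicle library 3 the gefitinib value was -0.22 (adjusted p = 0.0625), and without gefitinib library 1 it was -0.26 (adjusted p = 0.0512), so each single-compound call was lost with 1 library left out.

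CDC20 went from 114 ± 13.4 FPKM with vehicle to 60.04 ± 2.85 with gefitinib, 74.5 ± 7.10 with AZ1366 and 39.7 ± 0.533 with the combination (mean ± SD, n = 4), and fell in all 3 comparisons. CDCA5, the cohesin protector sororin, had the largest fall of this role group with the combination, from 39.7 ± 2.38 to 12.3 ± 0.817 FPKM (-1.62 ± 0.07, limma adjusted p = 1.73e-12). ESPL1, the protease separase, went from 5.68 ± 0.703 to 1.66 ± 0.169 FPKM (-1.33 ± 0.09, limma adjusted p = 5.12e-10), and CDCA3 from 28.8 ± 1.83 to 12.2 ± 0.438 FPKM. BUB3, a checkpoint adaptor, went from 98.3 ± 1.20 to 67.997 ± 0.805 FPKM and was not called with AZ1366.

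The scaffold of the chromosomal passenger complex, which holds AURKB at centromeres, was represented by BIRC5, INCENP and CDCA8, and all 3 fell in every pairwise comparison. BIRC5, survivin (chr17:76210276-76221716), stood at 73.1, 70.7, 67.4 and 67.1 FPKM in vehicle libraries, 45.5, 49.2, 48.2 and 55.98 in gefitinib, 62.3, 57.4, 60.8 and 56.1 in AZ1366 and 39.1, 41.6, 36.9 and 38.7 in combination libraries. Each treated group lay below vehicle without overlap, and gefitinib lay just below AZ1366. BIRC5 changed by -0.48 ± 0.06, -0.23 ± 0.06 and -0.82 ± 0.06 (limma adjusted p = 2.7e-06, 0.00402 and 1.24e-09), and the AZ1366 call was lost under median-ratio scaling (-0.11, adjusted p = 0.144). INCENP went from 15.1 ± 1.69 to 4.94 ± 0.324 FPKM with the combination, and CDCA8, borealin, from 35.9 ± 0.810 to 13.3 ± 0.414 FPKM.

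Kinetochore and centromere genes, 8 members, held both the members that fell most and members that hardly moved, with medians of -0.55, -0.25 and -0.94 for gefitinib, AZ1366 and the combination. CENPE, a kinetochore motor of the kinesin family that carries chromosomes to the spindle equator (chr4:104026962-104119566), had 12.2, 12.2, 12.4 and 11.6 FPKM in vehicle libraries, 6.26, 7.12, 2.27 and 1.38 in gefitinib, 5.87, 2.15, 1.96 and 3.22 in AZ1366 and 0.867, 1.06, 0.553 and 0.640 in combination libraries. No treated library reached the vehicle range, the combination libraries lay lowest, and gefitinib libraries 3 and 4 lay well below libraries 1 and 2. CENPE fell, with changes of -1.50 ± 0.31 with gefitinib (limma adjusted p = 0.00042), -1.69 ± 0.31 with AZ1366 (adjusted p = 0.000276) and -2.89 ± 0.31 with the combination (adjusted p = 1.41e-07), to 6.44% of its vehicle FPKM. The added 1 FPKM holds back the fold of so low a level, and with 0.1 FPKM added the combination value was -3.83.

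CENPF, a large protein of the outer kinetochore (chr1:214776531-214837914), had 31.2, 30.1, 29.9 and 29.96 FPKM in vehicle libraries, 19.7, 20.5, 11.6 and 8.88 in gefitinib, 22.8, 10.2, 9.18 and 13.2 in AZ1366 and 6.19, 5.89, 4.70 and 5.25 in combination libraries. The single compounds spread widely below vehicle and overlapped each other, and the combination lay below both. CENPF fell, with changes of -1.03 ± 0.24, -1.16 ± 0.24 and -2.27 ± 0.24 (limma adjusted p = 0.00103, 0.000618 and 9.26e-08). CENPA, the histone H3 variant of centromeres (chr2:27008881-27017455), had 26.4, 36.5, 30.5 and 25.7 FPKM in vehicle libraries, 21.7, 24.8, 21.04 and 20.5 in gefitinib, 36.6, 25.5, 38.6 and 33.2 in AZ1366 and 15.4, 16.1, 15.9 and 16.9 in combination libraries. Gefitinib and combination libraries of CENPA lay below vehicle and the AZ1366 libraries overlapped it, with changes of -0.41 ± 0.11, 0.16 ± 0.11 and -0.84 ± 0.11 (limma adjusted p = 0.00434, 0.233 and 2.52e-06). The AZ1366 value of CENPA was 0.28 without AZ1366 library 2 (adjusted p = 0.0242), 0.28 under median-ratio scaling (adjusted p = 0.0279) and -0.09 with the length and GC correction.

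Without CENPE and CENPF the other 6 kinetochore members had medians of -0.46, -0.19 and -0.90. Subunits of the NDC80 complex, which binds microtubules, did not move alike. NDC80 went from 28.98 ± 0.443 to 14.6 ± 0.488 FPKM with the combination (-0.94 ± 0.06) and NUF2 from 31.6 ± 3.36 to 12.9 ± 1.10 FPKM (-1.23 ± 0.08). SPC24 went from 5.35 ± 0.971 to 2.27 ± 0.230 FPKM (-0.95 ± 0.12), and these 3 subunits were called lower. SPC25, the fourth subunit, was at 19.3 ± 3.03 FPKM in vehicle libraries, 19.4 ± 2.55 in gefitinib, 24.7 ± 5.46 in AZ1366 and 16.8 ± 1.55 in combination libraries, and no change against vehicle was called. Its AZ1366 change of 0.33 ± 0.14 (limma adjusted p = 0.0505) was called higher in 7 alternatives, among them without AZ1366 library 1, without vehicle library 4 (0.43, adjusted p = 0.0172) or gefitinib library 4 (adjusted p = 0.0452), under median-ratio scaling (0.45, adjusted p = 0.0318) and with quantile normalization (0.45, adjusted p = 0.0273), and was -0.03 with the length and GC correction. Its combination change of -0.18 ± 0.14 became -0.62 (limma adjusted p = 6.34e-05) with the length and GC correction. Whether the subunits differed from each other was not tested. CENPN, which reads the centromeric nucleosome, went from 30.98 ± 3.13 to 16.5 ± 1.18 FPKM, and its AZ1366 change of -0.22 ± 0.10 was not called (limma adjusted p = 0.0649) but was in 6 alternatives.

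All 9 kinesins, the motors that build and elongate the spindle, fell in all 5 pairwise comparisons. Their medians were -0.78 with gefitinib, -0.58 with AZ1366 and -1.59 with the combination. KIF23, the motor of the central spindle (chr15:69706626-69740764), had 61.6, 59.9, 60.6 and 57.4 FPKM in vehicle libraries, 34.96, 37.6, 30.5 and 28.9 in gefitinib, 48.1, 33.97, 32.99 and 36.1 in AZ1366 and 16.4, 16.96, 14.8 and 16.2 in combination libraries. All treated libraries lay below all vehicle libraries, the single compounds overlapped, and the combination libraries lay lowest. KIF23 fell, with changes of -0.85 ± 0.10, -0.66 ± 0.10 and -1.83 ± 0.10 (limma adjusted p = 9e-07, 4.6e-05 and 1.54e-11), the largest combination change of the kinesins. KIF20A, which acts in cytokinesis, changed least among them with the combination, from 26.7 ± 1.83 to 12.9 ± 0.767 FPKM (-0.99 ± 0.09). KIF11, the motor that separates spindle poles, went from 38.6 ± 0.587 to 12.4 ± 0.923 FPKM, and KIF2C, which depolymerizes microtubules at centromeres, from 44.7 ± 2.07 to 15.6 ± 0.556 FPKM. KIF4A went from 42.1 ± 1.98 to 11.5 ± 0.573 FPKM, KIF14 from 9.62 ± 0.132 to 2.21 ± 0.178, KIF18A from 30.9 ± 1.94 to 9.01 ± 0.289, KIFC1 from 37.02 ± 3.20 to 12.002 ± 0.977 and KIF15 from 4.49 ± 0.141 to 0.823 ± 0.0688 FPKM (mean ± SD, n = 4). With CENPE, itself a kinesin, added to make 10 genes, the kinesin medians were -0.80, -0.59 and -1.63.

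Of the 4 cytokinesis genes, ANLN, the scaffold anillin of the contractile ring (chr7:36363758-36493400), had the highest vehicle level of all members per kilobase. It stood at 233, 234, 249.9 and 232 FPKM in vehicle libraries, 149, 158, 125 and 115 in gefitinib, 180.5, 132, 132 and 139 in AZ1366 and 60.9, 61.8, 55.2 and 57.4 in combination libraries. The single compounds overlapped each other below vehicle, and the combination lay below both. ANLN fell, with changes of -0.80 ± 0.10, -0.71 ± 0.10 and -1.995 ± 0.10 (limma adjusted p = 2.02e-06, 3.11e-05 and 6.48e-12). PRC1, which bundles midzone microtubules, went from 60.9 ± 2.41 to 22.9 ± 1.73 FPKM with the combination. ECT2, the exchange factor that activates RhoA, went from 96.3 ± 4.38 to 43.5 ± 1.41 FPKM and its partner RACGAP1 from 64.9 ± 2.21 to 27.8 ± 0.575 FPKM. The cytokinesis medians were -0.60 with gefitinib, -0.45 with AZ1366 and -1.28 with the combination, and all 4 fell in every pairwise comparison. Under median-ratio scaling the AZ1366 change of ECT2 went from -0.21 to -0.08 and was not called (limma adjusted p = 0.19).

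Spindle assembly factors, 5 members, had medians of -0.67, -0.64 and -1.68. TPX2, which activates AURKA on the spindle (chr20:30326903-30389603), had 153, 137, 139 and 135 FPKM in vehicle libraries, 79.9, 83.5, 68.7 and 67.1 in gefitinib, 113, 78.8, 82.3 and 85.5 in AZ1366 and 40.7, 44.02, 36.8 and 40.1 in combination libraries. ASPM, a spindle pole protein (chr1:197053256-197115824), had 21.2, 20.96, 20.96 and 20.1 FPKM in vehicle libraries, 14.8, 14.4, 8.54 and 6.43 in gefitinib, 16.4, 9.24, 8.81 and 10.8 in AZ1366 and 4.19, 4.13, 3.67 and 3.62 in combination libraries. For both genes the treated libraries lay below vehicle without overlap, the single compounds overlapped, and the combination lay lowest. TPX2 fell, with changes of -0.91 ± 0.10, -0.66 ± 0.10 and -1.78 ± 0.10 (limma adjusted p = 3.39e-07, 4.71e-05 and 2.03e-11). ASPM fell, with changes of -0.93 ± 0.20, -0.86 ± 0.20 and -2.16 ± 0.20 (limma adjusted p = 0.000561, 0.00149 and 1.92e-08). NUSAP1, a microtubule binder, was the exception of this role group, at 39.7 ± 2.23 FPKM with vehicle, 38.2 ± 2.78 with gefitinib and 38.7 ± 2.37 with AZ1366, neither called, and 29.3 ± 0.695 with the combination (-0.43 ± 0.06, limma adjusted p = 3.62e-06). HMMR went from 80.5 ± 3.24 to 24.6 ± 2.72 FPKM and DLGAP5 from 65.6 ± 2.01 to 23.4 ± 1.73 FPKM with the combination.

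All 6 genes of chromosome structure fell in every pairwise comparison, with medians of -0.75, -0.47 and -1.60 against vehicle. MKI67, the chromosome surface protein Ki-67 used as a marker of dividing cells (chr10:129894924-129924468), had 28.4, 27.3, 24.9 and 24.7 FPKM in vehicle libraries, 13.1, 12.9, 9.44 and 8.71 in gefitinib, 21.1, 10.6, 9.57 and 13.3 in AZ1366 and 5.48, 5.12, 4.37 and 4.53 in combination libraries. AZ1366 library 1 lay between the vehicle libraries and the other AZ1366 libraries, and the combination lay lowest. MKI67 fell, with changes of -1.20 ± 0.17, -0.96 ± 0.17 and -2.22 ± 0.17 (limma adjusted p = 9.96e-06, 0.000232 and 1.97e-09).

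TOP2A, the topoisomerase that untangles sister chromatids (chr17:38544772-38574202), had 131, 132, 136 and 132 FPKM in vehicle libraries, 90.6, 92.6, 77.4 and 62.4 in gefitinib, 112, 88.5, 83.8 and 91.96 in AZ1366 and 43.3, 41.5, 37.5 and 36.4 in combination libraries. SMC4, a core subunit of condensin (chr3:160117429-160152741), had 89.3, 94.9, 93.5 and 85.5 FPKM in vehicle libraries, 55.4, 57.8, 42.3 and 33.1 in gefitinib, 77.6, 47.5, 46.1 and 54.8 in AZ1366 and 22.8, 23.7, 19.5 and 20.5 in combination libraries. In both genes AZ1366 library 1 was the highest treated library, all treated libraries lay below vehicle, and the combination lay below every other library. TOP2A fell, with changes of -0.73 ± 0.11, -0.50 ± 0.11 and -1.72 ± 0.11 (limma adjusted p = 1.13e-05, 0.000769 and 8.64e-11). SMC4 fell, with changes of -0.96 ± 0.16, -0.70 ± 0.16 and -2.02 ± 0.16 (limma adjusted p = 3.98e-05, 0.00119 and 1.97e-09), and against AZ1366 alone its fall with the combination was the largest of the members (-1.32 ± 0.16, adjusted p = 1.13e-06). Without AZ1366 library 1 that value was -1.16, and ANLN, at -1.18, had the largest. The other condensin subunits SMC2, NCAPG and NCAPH went from 26.6 ± 1.16, 37.4 ± 1.53 and 17.8 ± 0.327 FPKM with vehicle to 8.93 ± 0.440, 13.4 ± 0.623 and 5.96 ± 0.347 with the combination.

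Set side by side, kinesins changed more than kinases in each comparison with vehicle (medians of -0.78 and -0.62, -0.58 and -0.23, -1.59 and -1.13), and kinetochore genes less than cytokinesis genes (-0.55 and -0.60, -0.25 and -0.45, -0.94 and -1.28). The groups also differed in transcript length, with a median of 2248 nucleotides for kinases (1254 to 4135) and 3723 for kinesins (2706 to 7274). With each library corrected for length and GC content, the kinase and kinesin medians were -0.70 and -0.79 with gefitinib, -0.33 and -0.52 with AZ1366, and -1.27 and -1.54 with the combination. The kinetochore and cytokinesis medians were then -0.60 and -0.61, -0.35 and -0.42, and -1.19 and -1.23, closer to each other than without the correction. Members are not replicates, so these differences between roles were not tested.

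Longer mitotic transcripts had larger falls. Transcript length, the longest annotated for the gene, ran from 613 nucleotides (CKS2) to 12678 (MKI67), with a median of 3201, and the 28 longer and 28 shorter members were compared. The longer members had a median change of -0.79 and the shorter of -0.55 with gefitinib, -0.52 and -0.23 with AZ1366, and -1.57 and -0.94 with the combination. All 28 longer members were called lower with gefitinib and with the combination, and 25 of them with AZ1366. Of the 28 shorter members 25, 26 and 16 were, in that order. Over all tested loci, not split by length, 36.9% were called lower with gefitinib, 49.4% with the combination and 39.8% with AZ1366. Across the 57 members Spearman's rho between length and change was -0.57 with gefitinib, -0.64 with AZ1366 and -0.65 with the combination, where over 11536 tested loci it was -0.17, -0.33 and -0.29. These are descriptions, since the points come from the same libraries. FPKM is also divided by length, and whether the same length was used for every library is not given.

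The members' median lay below that of other loci of like length in every length class. Under 2 kb, 9 members had a median of -0.41 with gefitinib, 0.05 with AZ1366 and -0.84 with the combination, against 0.06, 0.10 and 0.17 for 2095 other loci. At 5 kb and over, 11 members had medians of -0.81, -0.64 and -1.73, against -0.12, -0.18 and -0.325 for 3307 other loci. With the length and GC correction the difference between longer and shorter members was -0.13 with gefitinib, -0.16 with AZ1366 and -0.26 with the combination (-0.24, -0.29 and -0.63 without it), and rho over the members was -0.40, -0.44 and -0.43. MAD2L1 and BUB3, with longest annotated transcripts of 5468 and 7828 nucleotides, had small changes. CDC20, at 1777, had a large one (-1.49 with the combination). Which transcripts lie behind the deposited values is not given.

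**Figure D3:**
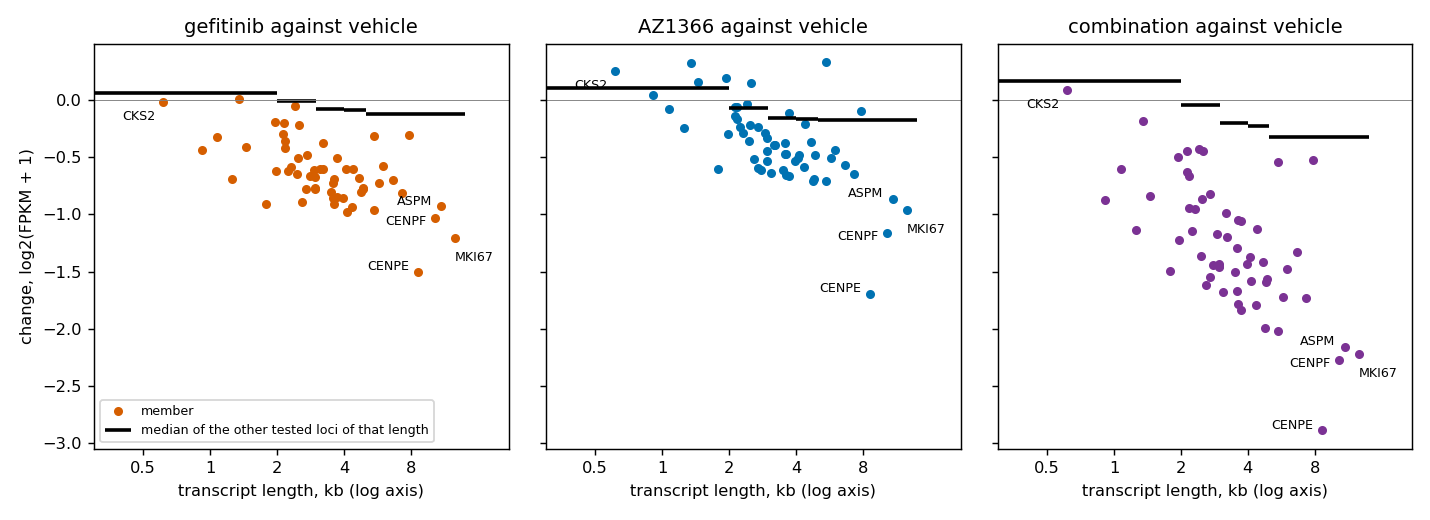
Change against vehicle on the log2(FPKM + 1) scale (y axis) by transcript length in kb (x axis, log) for the 57 members (points), with black lines at the median of other tested loci in 5 length classes. The points slope down with length, and all 57 lie below the lines with gefitinib and with the combination, while 46 lie below and 11 above with AZ1366, among them CKS2, CCNB2, MAD2L1 and BUB3.

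The gap between longer and shorter members differed between libraries of a group. The difference of their medians was -0.12, -0.12, -0.33 and -0.39 in gefitinib libraries 1 to 4, -0.10, -0.38, -0.44 and -0.32 with AZ1366, and -0.58, -0.55, -0.74 and -0.56 with the combination, on the log2 scale from the vehicle mean. Gefitinib libraries 3 and 4 and AZ1366 libraries 2 to 4 had the wider gaps, and the combination the widest. The median over all members moved with it, at -0.56, -0.53, -0.75 and -0.74 with gefitinib, -0.22, -0.52, -0.48 and -0.45 with AZ1366, and -1.33, -1.25, -1.41 and -1.38 with the combination. What set these libraries apart was not tested.

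**Figure D4:**
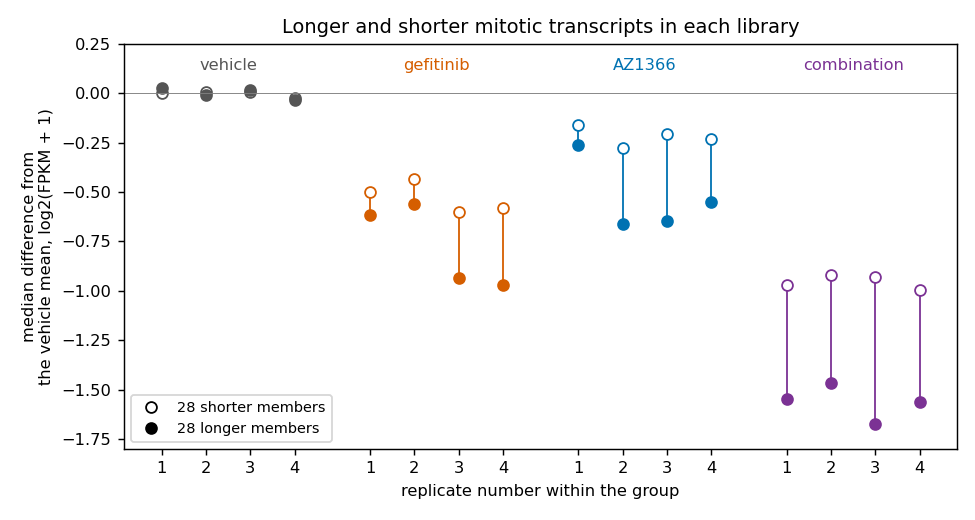
Median difference from the vehicle mean on the log2(FPKM + 1) scale (y axis) in each of the 16 libraries (x axis, by group and replicate) for the 28 longer (filled) and 28 shorter (open) members. Treated libraries lie below 0 with the filled point under the open point, a difference of -0.10 in AZ1366 library 1 and -0.74 in combination library 3.

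The interaction asks whether the combination departs from the sum of both single changes on the log2 scale. It was below 0 for 54 of 57 members, with a median of -0.25 (-0.0011 over all loci), and was called lower for 9 and higher for 0, against 1.49% and 0.326% of tested loci. At an unadjusted p under 0.05 the count was 29 members. The share of all tested loci at that threshold is not given here, so this count has no background. The called members were UBE2C (-0.48 ± 0.08, limma adjusted p = 0.00451), CDCA8 (-0.37 ± 0.07, 0.0111), CDK1 (-0.50 ± 0.10, 0.0133), TTK (-0.44 ± 0.10, 0.0239), CCNB2, NCAPG, AURKA, NDC80 and NUSAP1.

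The called members did not all depart in the same form. CDK1 had single changes of opposite sign, -0.19 ± 0.07 with gefitinib and 0.19 ± 0.07 with AZ1366, and -0.50 ± 0.07 with the combination. Both single-compound calls of CDK1 were lost in some alternatives, and its AZ1366 value was -0.10 with the length and GC correction. AURKA, TTK, CDCA8, NDC80, NUSAP1 and NCAPG had both single changes below 0. For CDCA8 these were -0.64 and -0.36, with -1.37 for the combination. UBE2C, with -0.44 ± 0.05 and 0.05 ± 0.05 for the single compounds, had -0.87 ± 0.05 with the combination. CENPE, which each compound alone lowered most, departed by 0.30 ± 0.44 and was not called (limma adjusted p = 0.775), nor were MAD2L1 (-0.56 ± 0.15, adjusted p = 0.0615) and CENPA (-0.59 ± 0.16, adjusted p = 0.0755). UBE2C, CDCA8 and CDK1 kept their call in every alternative run, and the other 6 lost it in 6 to 20 of them. The count of 9 became 3 without vehicle library 1 or 4, gefitinib library 1 or 2, or AZ1366 library 4. It became 4 without gefitinib library 3 or combination library 2, 3 or 4, and 5 without combination library 1. In these fits 16 to 27 of all tested loci were called higher and 83 to 118 lower, against 38 and 174 with all libraries. The count was 13 without AZ1366 library 1 (255 higher and 258 lower over all loci) or gefitinib library 4 (43 and 228). It was 16 under median-ratio scaling (125 and 294 over all loci).

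**Figure D5:**
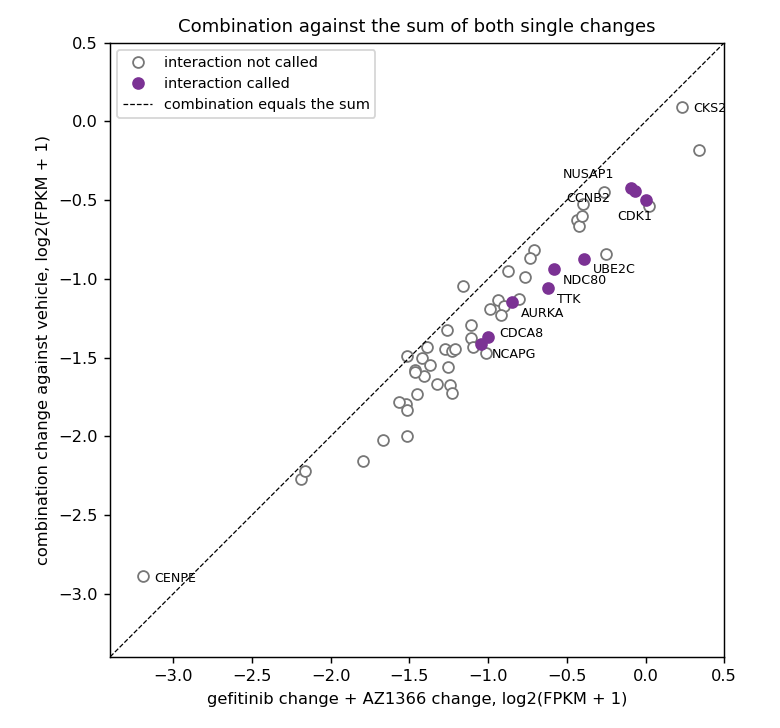
Combination change (y axis) against the sum of the gefitinib and AZ1366 changes (x axis) for 57 members on the log2(FPKM + 1) scale, with the dashed line where both are equal and filled points for members with a called interaction. Of the 57 points 54 lie below the line, and CENPE lies above it.

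Members with CHR letters in their promoter window, 37 of the 49 with a window, had medians of -0.69 with gefitinib, -0.48 with AZ1366 and -1.45 with the combination, and the 12 without had -0.62, -0.31 and -1.02. For CCAAT the order was the other way, at -0.66, -0.39 and -1.37 for the 37 members with it and -0.73, -0.46 and -1.47 for the 12 without. Among the printed windows, which were not picked at random, CKS2, with a CHR and 3 CCAAT, had a combination change of 0.09. CCNB2 and ASPM, each with a CHR and 4 CCAAT in the whole window, had -0.44 and -2.16. CENPE, with neither set of the letters searched, had -2.89.

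Other genes of mitosis outside the 58 moved the same way. Of 108 tested in 6 further lists, 89 were lower and 4 higher with gefitinib (median -0.49), 77 lower and 7 higher with AZ1366 (-0.31), and 97 lower and 4 higher with the combination (-1.04). Over all tested loci 36.9%, 39.8% and 49.4% were lower in these comparisons, where the 108 genes had 82.4%, 71.3% and 89.8%. Among 30 kinetochore and centromere genes 27 were lower and 0 higher with the combination (median -0.83), led by SGOL2, a guardian of centromeric cohesion, from 19.3 to 3.54 FPKM (-2.16 ± 0.17). Of 25 spindle, centrosome and cytokinesis genes all 25 were lower (-1.22), led by KIF20B, a kinesin, from 22.9 to 4.36 FPKM (-2.16 ± 0.17). All 13 kinases and phosphatases were lower (-0.88), led by GSG2, which phosphorylates histone H3, from 7.77 to 1.77 FPKM.

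Of 12 condensin and cohesin genes 11 were lower and 0 higher (-0.96), led by the cohesin subunit SMC3, from 31.0 to 9.56 FPKM. APC/C genes, most of them expressed through the whole cell cycle, had the smallest median of the lists, -0.43, with 11 of 15 lower (73.3%, against 49.4% of all loci) and 2 higher. They ranged from UBE2S, an E2 enzyme of the APC/C, from 149.5 to 50.3 FPKM (-1.56 ± 0.09), to ANAPC11, its RING subunit, from 41.5 to 62.8 FPKM (0.59 ± 0.11, limma adjusted p = 8.28e-05). Of 13 genes of the MuvB, DREAM and MYB complexes, which act at the CHR, 10 were lower and 2 higher (-1.15): E2F7, a repressor of the E2F family, went from 13.6 to 3.003 FPKM (-1.87 ± 0.07), and RBL2, the p130 pocket protein of the repressive DREAM complex, from 10.05 to 11.95 FPKM (0.23 ± 0.08, limma adjusted p = 0.0128).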

How the data were processed

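PolyA RNA was sequenced in 16 libraries, 4 in each of 4 groups. Per the labels' protocols a miRNeasy kit gave the RNA and the TruSeq RNA version 2 kit the libraries. The values are FPKM per locus as the authors deposited them. The submitters' processing notes name TopHat (version 1.4.1), Cufflinks (version 1.3.0), Cuffdiff and the build hg19. What each tool did, the annotation and any further scaling are not given in the sources used here. Read counts were not analysed here. Steps of whole reads were looked for in ratios between libraries at loci whose mean did not exceed 0.05 FPKM. No bin of width 0.05 took more than 11.9% of the ratios, so depth could not be recovered and counting intervals are not given.

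Loci with a mean of at least 1 FPKM over the 16 libraries (11647 of 24293) were tested on log2(FPKM + 1) with limma (3.58.1, under R 4.3.3), a scale that understates the change of low genes. The model had 4 groups as a factor, leaving 12 residual degrees of freedom, and variances were moderated along a mean-variance trend. Two-sided p-values were adjusted over all tested loci by Benjamini-Hochberg and read at 0.05. The method was tested on simulated data. The 6 comparisons were each treatment against vehicle, the combination against each compound, and the interaction.

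The members, their roles, the further lists and the rules were chosen with earlier results of these data known. Values in every library are given for 11 fixed members, for the member with the highest mean in each role group, and for the 3 called members with the largest rise and the 3 with the largest fall in each comparison. Values of the other members were given by role. Transcript length and GC content came from GENCODE version 29 (GRCh38), the longest transcript of a gene, for 11536 tested loci (99.0%) and all 57 members, and the correction fitted 5 spline terms each to log length and GC content in every library. Alternatives were a pseudocount of 0.1, no filter, a minimum mean of 5 FPKM, quantile and median-ratio scaling, no trend, only the compared libraries, the replicate number as a block, the correction for length and GC content, leaving out each library, and vehicle and AZ1366 libraries 1 together. Lengths of the transcripts named in the file were added after seeing the data. No library was left out of the fit. There were 0 pairs of identical libraries.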

Additional observations from a re-analysis of the deposited data

Results flagged for a closer look

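Of 84 groups examined (21 named members in 4 groups of 4 libraries), 11 held a library whose gap to its nearest neighbour exceeded the share of the group's range that Dixon's 95% critical value allows, and chance flags about 1 in 20 groups. ANLN was 250 FPKM in vehicle library 3 (232 to 234 in the others) and 180 in AZ1366 library 1 (132 to 139). AURKB was 17.7 FPKM in combination library 3 (18.0 to 18.1). CCNB1 was 63.8 FPKM in combination library 1 (70.2 to 71.5). CDK1 was 147 FPKM in AZ1366 library 1 (165 to 168). CENPE was 11.6 FPKM in vehicle library 4 (12.2 to 12.4). CENPF was 31.2 FPKM in vehicle library 1 (29.9 to 30.1). FOXM1 was 23.0 FPKM in gefitinib library 3 (24.8 to 25.1). MAD2L1 was 67.9 FPKM in gefitinib library 1 (78.8 to 79.7). PLK1 was 124 FPKM in vehicle library 1 (107 to 109). UBE2C was 86.7 FPKM in gefitinib library 4 (76.8 to 77.9).

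By the interaction test on the log2(FPKM + 1) scale, 9 members were called for a gefitinib change that differed by whether AZ1366 was present. Over all tested loci 1.49% were called lower and 0.326% higher in that test. CDK1, UBE2C and CDCA8 kept the call in every alternative run, and each of the others lost it in some of them. The differences were -0.50 for CDK1, -0.48 for UBE2C, -0.44 for TTK, -0.38 for CCNB2, -0.37 for CDCA8, -0.37 for NCAPG, -0.36 for NDC80, -0.34 for NUSAP1 and -0.30 for AURKA, each a more negative gefitinib change in the presence of AZ1366.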

How the results depend on the processing

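In each of the 5 pairwise comparisons the members' median change stayed below 0 under every alternative run, and most members stayed called lower. Median-ratio scaling moved the median to -0.27 with AZ1366, -1.19 with the combination (quantile normalization also -1.19) and -0.502 for the combination against gefitinib, gave 1 member higher with the combination, and gave 16 members with a lower interaction. The 4 members called higher with AZ1366 became 2 with only the compared libraries and 1 with the length and GC correction, with or without the replicate block. Over all tested loci 2168 were higher, and 1839 with only the compared libraries. With the length and GC correction 1966 of 11536 were (1978 with the block). The length and GC correction also added lower calls with AZ1366, for TTK, NEK2, CCNB1, CDC25C, PTTG1, CENPN and NUSAP1. In its fit without the block CDK1, CKS2 and UBE2C were called lower with AZ1366 as well, and CKS2 and SPC25 with the combination. Of all tested loci 4705 of 11536 were then lower with AZ1366 and 5773 with the combination, against 4633 and 5753 of 11647. That correction took the difference between longer and shorter members to -0.158 with AZ1366, -0.264 with the combination and -0.121 for the combination against gefitinib, and its cause was not tested.

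The same difference in the interaction (-0.0284) changed sign with quantile normalization (0.00288), with the length and GC correction (0.0257), and without vehicle and AZ1366 libraries 1 (0.0647), and ran from -0.0746 to 0.0901 with a library left out, so it has no stable direction. With a library left out the members with a lower interaction ran from 3 to 13 and those higher with AZ1366 from 1 to 5. Over all tested loci these counts ran from 83 to 258 and from 1857 to 2219.

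Single members changed sign as follows, and the cause was not tested. With the length and GC correction, with or without the block, the AZ1366 value was -0.104 for CDK1, -0.198 for CKS2, -0.279 for UBE2C, -0.0906 for CENPA and -0.0316 for SPC25. CKS2 was then -0.478 with the combination and -0.185 for the combination against gefitinib, and SPC25 was -0.193 with gefitinib. With median-ratio scaling the AZ1366 value was 0.00771 for TTK, 0.0657 for CCNB1, 0.049 for CDC25C, 0.0276 for BUB3, 0.0461 for PTTG1 and 0.0864 for NUSAP1, and the gefitinib value 0.0446 for CKS2 and 0.00879 for NUSAP1. With quantile normalization it was 0.0853 for CDC25C and 0.0465 for NUSAP1 with AZ1366, 0.00159 for NUSAP1 with gefitinib, and -0.0418 for CKS2 and 0.0309 for SPC25 with the combination. With a library left out the gefitinib value ran from -0.0581 to 0.0138 for CKS2 and from -0.0686 to 0.113 for SPC25, and without vehicle and AZ1366 libraries 1 it was -0.0257 for SPC25.

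The labels do not say what a replicate number stands for, and not every correlation between same-numbered libraries of different groups was above 0.1 (16 of 24 were, from -0.447 to 0.539), so the numbers were not used as pairs. For 8 of 16 libraries the mean correlation was highest with libraries of their own number, out of 4 numbers, which is a hint from the data and not from the design. With the replicate block 54 members were lower with gefitinib, and 42 lower and 5 higher with AZ1366 (SPC25 added, 0.326, limma adjusted p = 0.0167). The combination had 55 lower against vehicle, 55 against gefitinib and 57 against AZ1366, and the interaction had 10 lower. More of all tested loci were called with the block, with 4503 lower for gefitinib, and 4882 lower and 2249 higher for AZ1366. For the combination 5845 loci were lower against vehicle, 4666 against gefitinib and 4355 against AZ1366, and the interaction had 186 lower. Depth is unknown, so what it limits cannot be stated.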
